A study of Mus musculus with 6 samples.

Results

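The genes described here are 10 adipocyte genes, of 24346 genes given for each library, in hearts of mice fed chow, a NASH diet or the NASH diet with pemafibrate. The list comprises 8 genes of white adipocytes (Adipoq, Plin1, Cfd, Lep, Retn, Cidec, Fabp4 and Car3) and 2 genes linked with brown adipocytes (Ucp1 and Cidea), matched by symbol. They were selected on their FPKM in these same 6 libraries, as a measure of fat tissue, so that their levels are a description and carry no test.

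RNA from the heart was sequenced in 6 libraries, 2 in each of 3 groups, named here by group and replicate (C1 and C2, N1 and N2, NP1 and NP2). Mice of the C group ate normal chow. Those of the N group ate the NASH diet, rich in fat, cholesterol and sucrose and containing bile acid, and those of the NP group ate that diet with 0.1 mg/kg pemafibrate, a selective modulator of the nuclear receptor PPARα. The study's methods describe male C57BL/6J mice, and no genetic change distinguishes the groups. The labels give 3 weeks of feeding, which is shorter than in the study's methods, and they name the heart as tissue while the extraction text speaks of liver. The sources used here do not say whether a library holds 1 heart or several, nor which chambers or how much surrounding fat was dissected. The spread between the 2 libraries of a group may therefore be technical or biological.

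White adipocytes store triglyceride in a single large lipid droplet and secrete hormones such as adiponectin and leptin. Brown adipocytes hold many small droplets and many mitochondria, in which the uncoupling protein Ucp1 turns the proton gradient into heat. Fat lies on the outer surface of the heart and around its large vessels, and heart muscle itself burns fatty acids, so that many genes of lipid handling are shared by cardiomyocytes and adipocytes.

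The 250 bases before the annotated start of Adipoq, Lep and Ucp1 are shown because these genes stand for the hormones of white fat and the heat programme of brown fat. Adipoq and Ucp1 were high in the same libraries, as described below, whereas Lep was barely detected. The sequences are those of RefSeq on GRCm38.p6, the mm10 build used for the files, and 7 of the 10 genes matched an entry in 8 windows, of which 2 belong to Cidec. Entries for Fabp4, Car3 and Cidea were not matched. Capitals mark matches on either strand to AGGTCA (the half-site read by nuclear receptors), TTGCGCAA (a palindrome read by C/EBP factors), CCAAT or TATAA. The windows are chr16:23146286-23146535 (plus strand) for Adipoq, chr6:29059971-29060220 (plus strand) for Lep and chr8:83290098-83290347 (plus strand) for Ucp1.
Adipoq: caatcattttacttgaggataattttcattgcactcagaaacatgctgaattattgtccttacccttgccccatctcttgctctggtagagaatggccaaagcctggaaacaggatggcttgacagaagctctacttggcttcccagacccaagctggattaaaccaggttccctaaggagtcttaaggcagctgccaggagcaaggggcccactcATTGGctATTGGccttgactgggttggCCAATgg
Lep: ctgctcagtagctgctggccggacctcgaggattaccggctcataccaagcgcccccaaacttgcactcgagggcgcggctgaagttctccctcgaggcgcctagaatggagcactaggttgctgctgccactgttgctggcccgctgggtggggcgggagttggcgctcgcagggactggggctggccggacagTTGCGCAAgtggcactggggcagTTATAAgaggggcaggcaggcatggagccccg
Ucp1: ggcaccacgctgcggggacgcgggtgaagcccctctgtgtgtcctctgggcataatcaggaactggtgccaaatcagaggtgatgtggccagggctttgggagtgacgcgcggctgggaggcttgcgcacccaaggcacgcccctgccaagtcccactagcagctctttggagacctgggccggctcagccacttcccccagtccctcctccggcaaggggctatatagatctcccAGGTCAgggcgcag

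The Adipoq window held CCAAT on 1 strand or the other at 3 places, the first of which lies 34 to 30 bases before the start. CCAAT occurs in 33.8% of the 32817 windows of this length. The Lep window held TTGCGCAA at 55 to 48 bases before the start, which 54 windows (0.165%) contain, and TTATAA at 32 to 27 bases, in which TATAA reads on both strands with overlap. TATAA occurs in 22.8% of windows. The Ucp1 window held AGGTCA at 14 to 9 bases before the start, as do 14.0% of windows somewhere in their length. None of the 4 strings was found in the windows of Plin1, Cfd, Retn and Cidec, which says only that these letters are not there. No binding of a factor was measured, and a match is a description of the sequence.

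The values are FPKM, fragments scaled by transcript length and by the number of mapped fragments, so that levels can be compared between genes. The depth, estimated from the smallest steps between FPKM values, was about 21400000 to 26100000 reads in the C libraries and 8220000 to 8690000 in the N and NP libraries, so that depth and diet cannot be told apart in comparisons with the C group. Replicate 1 of the N and NP groups was supplied under a name of another style than replicate 2, and values are given within each style below. C2 stood apart in liver genes, with a summed level of 604 FPKM over 10 genes against 48.4 in C1 and 2.79 to 10.2 elsewhere. The N and NP libraries stood apart from the C libraries in atrial genes, with sums of 4154 to 6825 FPKM against 406 and 533. Cardiomyocyte genes summed to between 49929.5 and 72258 FPKM in every library, and all 10 were detected.

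Adipoq, Plin1, Cfd, Retn, Cidec, Car3 and Ucp1 were higher in both N libraries than in either C library, and split within the NP group: replicate 1 (NP1) was low and replicate 2 (NP2) was high. The C libraries were low for these genes apart from Car3, which in C2 stood well above NP1. Lep had too few reads to be placed, and Fabp4 and Cidea did not follow this pattern. The N libraries lay above the C libraries without overlap for 8 of the 10 genes and below them for Fabp4. Of the 12923 genes whose mean FPKM was 0.5 or more, 22.5% and 27% lay above and below. The 8 include Lep, which had few reads and is not among these 12923 genes. The NP libraries lay below the N libraries for 6 genes (14.7% of all genes). They lay above the C libraries for 4 genes and below them for 2 (19.5% and 23% of all genes).

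**Figure D1:**
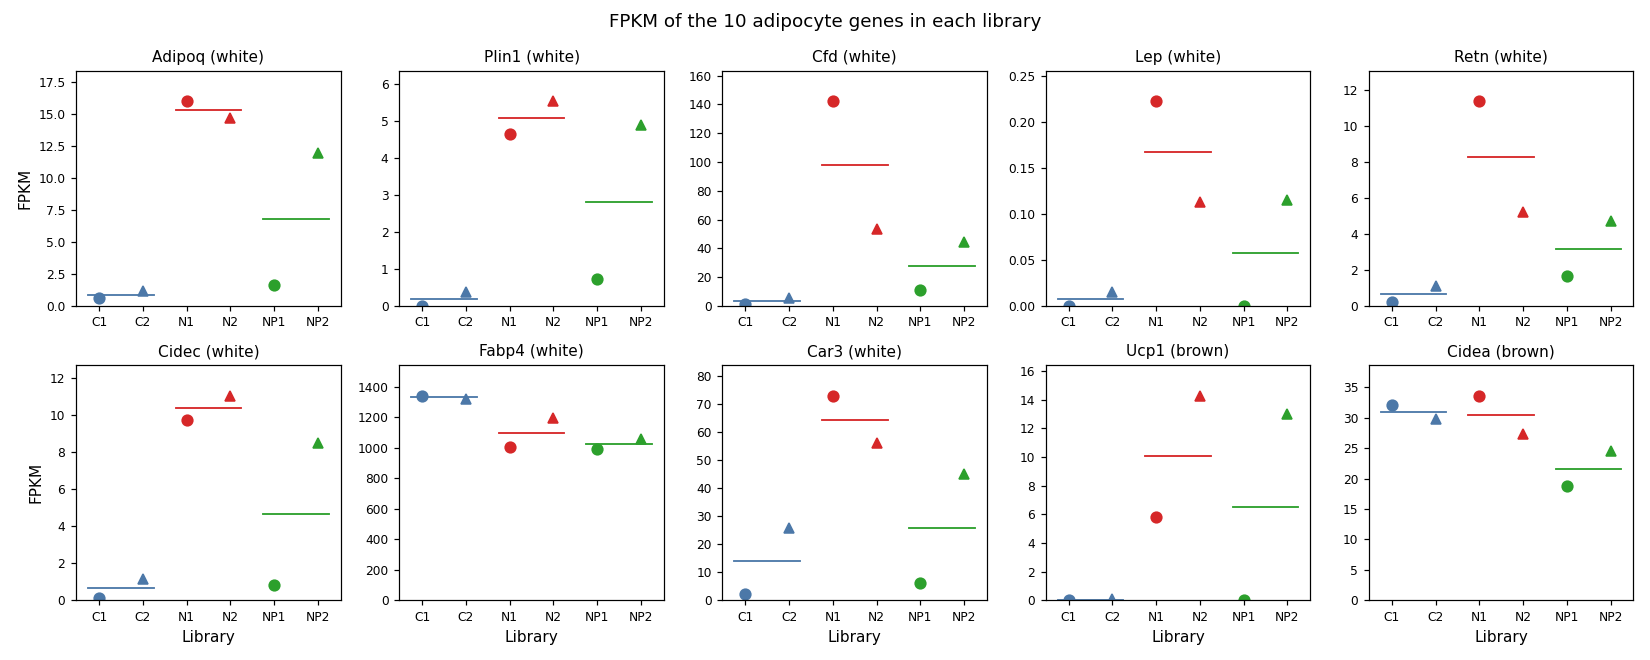
FPKM (vertical axes, from 0) of each adipocyte gene in the 6 libraries, with circles for replicate 1, triangles for replicate 2 and a line at each group mean. Adipoq stood at 1.66 FPKM in NP1 and 11.9 in NP2, and Fabp4 stood between 995 and 1341 FPKM throughout.

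Of the secreted products, adiponectin (Adipoq, chr16:23146536-23157968) is the insulin-sensitizing hormone made almost exclusively by adipocytes. Its level was 0.593 FPKM in C1 and 1.12 in C2, 16.0 in N1 and 14.6 in N2, and 1.66 in NP1 and 11.9 in NP2. The N libraries were close to each other, both were above every other library, and NP1 lay nearer to the C libraries than to NP2. The mean was 15.3 ± 0.940 FPKM (SD, n = 2) for N against 0.859 ± 0.376 (SD, n = 2) for C, a ratio of 17.8, whereas the NP group had a mean of 6.78 with an SD of 7.24 (n = 2), larger than the mean itself.

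Complement factor D (Cfd, chr10:79890853-79892655), also known as adipsin, is the protease of the alternative complement pathway that fat cells secrete. It reached 142 FPKM in N1 and 53.5 in N2, against 1.17 in C1 and 5.53 in C2 and 11.2 in NP1 and 44.3 in NP2. Its values were close to those of Car3 in N2 and NP2, and unlike Adipoq it differed 2.66-fold between the N libraries. The mean was 97.8 ± 62.7 FPKM for N and 3.35 ± 3.08 for C (SD, n = 2 each), a ratio of 29.2.

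Resistin (Retn, chr8:3655770-3659818), a small hormone of mouse adipocytes, had the same order of libraries as Cfd. Its level was 0.205 FPKM in C1 and 1.12 in C2, 11.4 in N1 and 5.20 in N2, and 1.64 in NP1 and 4.70 in NP2. N1 was again above N2, by 2.18-fold, and NP2 lay just under N2.

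Leptin (Lep, chr6:29060221-29073876), the hormone that reports fat stores to the brain, was barely detected. It was listed at 0 in C1 and NP1 and stood at 0.0150 FPKM in C2, 0.222 in N1, 0.112 in N2 and 0.115 in NP2. By the estimated depth these values correspond to about 1 read in C2, 6 in N1 and 3 each in N2 and NP2. Lep was under the filter on low values, which the other 9 genes passed, and the few reads do not allow its libraries to be ordered beyond counting error.

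Of the droplet proteins, perilipin 1 (Plin1, chr7:79721164-79732904) coats the droplet of adipocytes and gates the access of lipases. It was listed at 0 in C1, stood at 0.362 FPKM in C2, at 4.66 in N1 and 5.54 in N2 and at 0.732 in NP1 and 4.89 in NP2. Cidec (chr6:113424634-113435760), known as fat-specific protein 27, fuses small droplets into a large one. Its level was 0.127 FPKM in C1 and 1.17 in C2, 9.70 in N1 and 11.0 in N2, and 0.810 in NP1 and 8.47 in NP2. The N libraries were near each other for both droplet genes, with N2 slightly above N1, the opposite order to that of Cfd and Retn.

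Car3 (chr3:14863538-14872381), a carbonic anhydrase very abundant in fat cells and present in liver and slow skeletal muscle, showed the same pattern apart from C2. It stood at 2.32 FPKM in C1 and 25.8 in C2, 72.7 in N1 and 55.8 in N2, and 6.23 in NP1 and 45.1 in NP2. C2 exceeded C1 by 11.1-fold, so that the C group (mean 14.1, SD 16.6, n = 2) overlapped the NP group. C2 was also above C1 by 9.23-fold for Cidec, 5.46-fold for Retn, 4.72-fold for Cfd and 1.90-fold for Adipoq. The C1 values behind these folds were about 5, 4, 22 and 17 estimated reads, so the folds for Cidec and Retn are imprecise. The liver genes were higher in C2 as well: all 10 of them were above their C1 level, with Alb (albumin) at 211 FPKM in C2, 10.8 in C1 and 0.555 to 2.04 in the other libraries. The part of the liver genes in the C2 values was not tested.

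Fabp4 (chr3:10204342-10208616) carries fatty acids within adipocytes and is also strongly expressed in the capillary endothelium of the heart. It was by far the most abundant gene of the list, at 1341 FPKM in C1 and 1322 in C2, 1005 in N1 and 1195 in N2, and 995 in NP1 and 1057 in NP2. All N and NP libraries lay below the C libraries, by at most 1.35-fold between any 2 libraries, and NP1 was close to N1. The FPKM of all genes summed to more in C1 (625457) and C2 (652311) than in the N and NP libraries (548411 to 598867). Among the 10 genes, the lowest log2 difference between the N and C groups was -0.28, that of Fabp4. The lowest was -0.11 with FPKM scaled to the same total and -0.02 after quantile scaling. The lower Fabp4 values thus depended largely on the scaling. The 12 endothelial genes, all of them detected, summed to 820 and 804 FPKM in C1 and C2, 766 and 659 in N1 and N2, and 922 and 758 in NP1 and NP2. The N sums lay below the C sums, as the Fabp4 values did, whereas the NP sums overlapped both. These sums are weighted to abundant genes such as Aqp1, at 243 and 262 FPKM in C1 and C2 and 196 and 161 in N1 and N2. Gene by gene, 7 of the 12 had a positive log2 difference between the N and C groups, and the median was 0.005. On the unscaled FPKM, the endothelial list as a whole thus did not fall with Fabp4.

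Ucp1 (chr8:83290348-83298456), the defining gene of thermogenic fat, was listed at 0 in C1 and in NP1. It stood at 0.0640 FPKM in C2, or about 2 reads, at 5.84 in N1 and 14.3 in N2 and at 12.97 in NP2. The estimated reads were 73 in N1, 178 in N2 and 158 in NP2. In NP1, 3 reads would correspond to 0.254 FPKM, far below the level of the other NP library. No fold change is given, because 1 library of both the C and the NP groups was listed at 0.

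Cidea, which brown adipocytes use to enlarge droplets and which lies at chr18:67343564-67367794, did not accompany Ucp1. It was already at 32.1 FPKM in C1 and 29.9 in C2, where Ucp1 was at or near 0, and stood at 33.6 in N1 and 27.3 in N2 and at 18.8 in NP1 and 24.5 in NP2. The N and C libraries overlapped, and both NP libraries lay below all others. The NP mean was 21.6 ± 4.06 FPKM (SD, n = 2) and the N mean 30.4 ± 4.48 (SD, n = 2), a ratio of 0.711.

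Over all 10 genes, the median difference in log2(FPKM + 1), a scale that understates changes of low genes, was 2.62 between the N and C groups, -1.31 between the NP and N groups, and 1.34 between the NP and C groups. Over all 12923 genes these medians were -0.03, 0.03 and -0.01. The difference between the NP and N groups rested on 1 library. Without NP1 the median was -0.28, and without NP2 it was -2.21. The difference between the NP and C groups likewise was 2.31 without NP1 and 0.10 without NP2. Within the NP group, replicate 2 exceeded replicate 1 by a median of 1.83, more than the difference between the NP and N groups, whereas the 2 libraries of the N group differed by a median of -0.13. In bulk tissue, fewer adipocytes and less RNA per adipocyte cannot be told apart.

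The ratios between single libraries showed how evenly the genes moved. Between NP2 and N2, the ratio of FPKM was 0.768 for Cidec, 0.813 for Adipoq, 0.829 for Cfd, 0.904 for Retn and 0.910 for Ucp1, and the 7 genes with the pattern ranged from 0.768 to 0.910. Thus hormone, droplet and thermogenic genes stood in nearly the same proportions in both libraries. Fabp4 (0.885) and Cidea (0.899), which did not follow the pattern, lay in the same range, so this evenness does not set the 7 genes apart. The quartiles over all tested genes were 0.904 and 1.14 for this pair, with a median of 1.02. Between NP1 and N1, the ratio was 0.104 for Adipoq, 0.157 for Plin1, 0.144 for Retn, 0.0785 for Cfd and 0.0834 for Cidec, and Ucp1 was listed at 0 in NP1. For this pair too, the median over all tested genes was 1.02.

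Between the N libraries the genes did not move evenly. N1 over N2 was 2.66 for Cfd, 2.18 for Retn, 1.30 for Car3 and 1.09 for Adipoq, but 0.880 for Cidec, 0.842 for Plin1 and 0.410 for Ucp1. Relative to Adipoq, Ucp1 stood at 0.366 in N1, 0.974 in N2 and 1.09 in NP2, on the FPKM scale. Cfd relative to Adipoq stood at 8.91 in N1, 3.66 in N2 and 3.73 in NP2. Ucp1 relative to Adipoq was thus alike in N2 and NP2 and lower in N1. Cidea relative to Adipoq did not show this order, at 2.11 in N1, 1.86 in N2 and 2.06 in NP2. It was far higher where Adipoq was low, at 54.2 in C1, 26.6 in C2 and 11.3 in NP1. This ratio is therefore no measure of brown among white adipocyte genes.

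**Figure D2:**
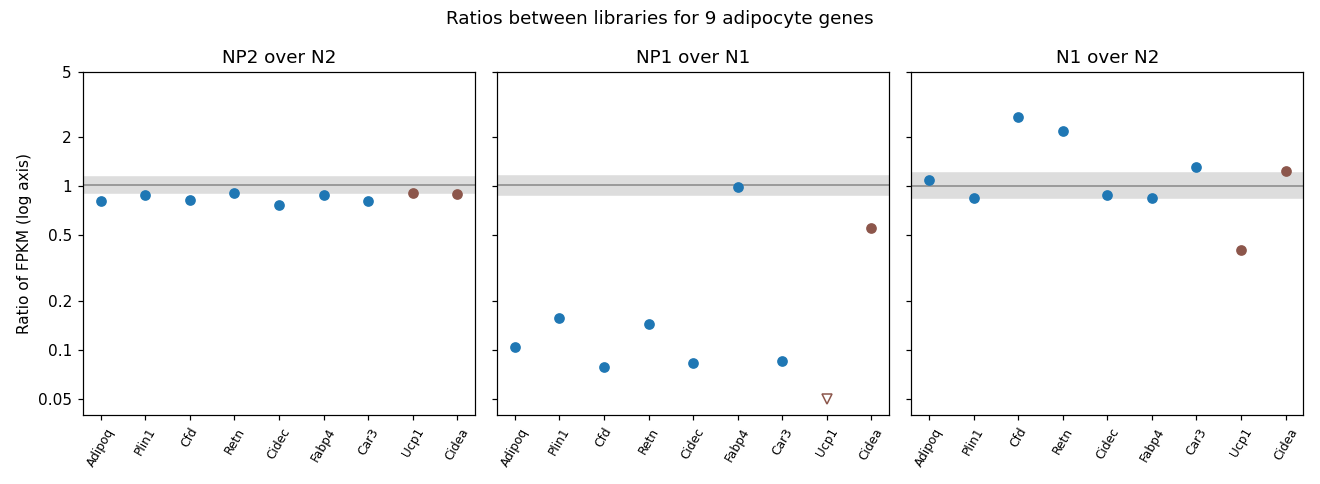
Ratios of FPKM between single libraries (log axis) for 9 of the adipocyte genes, Lep left out; blue points are white and brown points are brown adipocyte genes, the grey band spans the quartiles over all tested genes and the grey line is their median. The open triangle, drawn at the foot of the axis, is Ucp1, listed at 0 in NP1. NP2 over N2 lay between 0.768 and 0.910 for all 9 genes, whereas NP1 over N1 was at most 0.157 for the genes that followed the pattern.

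Genes of other cell types were read beside these values, with the sum of 8 adipocyte genes (Fabp4 and Cidea left out after their values were seen) as the measure of fat. Their summed level was 4.42 FPKM in C1 and 35.2 in C2, 263 in N1 and 160 in N2, and 22.2 in NP1 and 132 in NP2. Cfd and Car3 made up most of each sum. In C2, Car3, which liver also expresses, gave 25.8 FPKM, whereas Adipoq was lower in C2 (1.12) than in NP1 (1.66). Between N1 and N2 the sum followed Cfd (142 and 53.5 FPKM), while Plin1, Cidec and Ucp1 were higher in N2. The 10 atrial genes were as high in NP1 (4252 FPKM) as in N1 (4154), and in both far above the C libraries. Of these genes, 7 were higher in the N than in the C group and 3 in the NP than in the C group (adjusted p under 0.05 in limma's test), against 1.48% and 0.0387% of all genes. Sln (sarcolipin, an atrial regulator of the calcium pump) stood at 0 FPKM in C1 and 0.450 in C2, 250 in N1 and 462 in N2, and 287 in NP1 and 518 in NP2. Of the mesothelial genes, which mark the outer lining of the heart, 9 of 10 listed were found, and they summed to 12.8 FPKM in C1 and 4.80 in C2, 43.5 in N1 and 30.9 in N2, and 30.7 in NP1 and 33.0 in NP2. The mesothelial sum was 1.08-fold higher in NP2 than in NP1, while the atrial sum was 6825 FPKM in NP2 and thus also lower in NP1 than in NP2. The part of dissected atria or outer layers in the adipocyte values was not tested.

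The 10 macrophage genes moved in another way. They summed to 227 FPKM in C1 and 216 in C2, 370 in N1 and 355 in N2, and 163 in NP1 and 150 in NP2. Both NP libraries were low, including NP2, in which the adipocyte genes were nearly as high as in N2. Of the macrophage genes, 3 were higher in the N than in the C group and 5 were lower in the NP than in the N group (adjusted p under 0.05 in limma's test), against 1.48% and 1.39% of all genes.

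**Figure D3:**
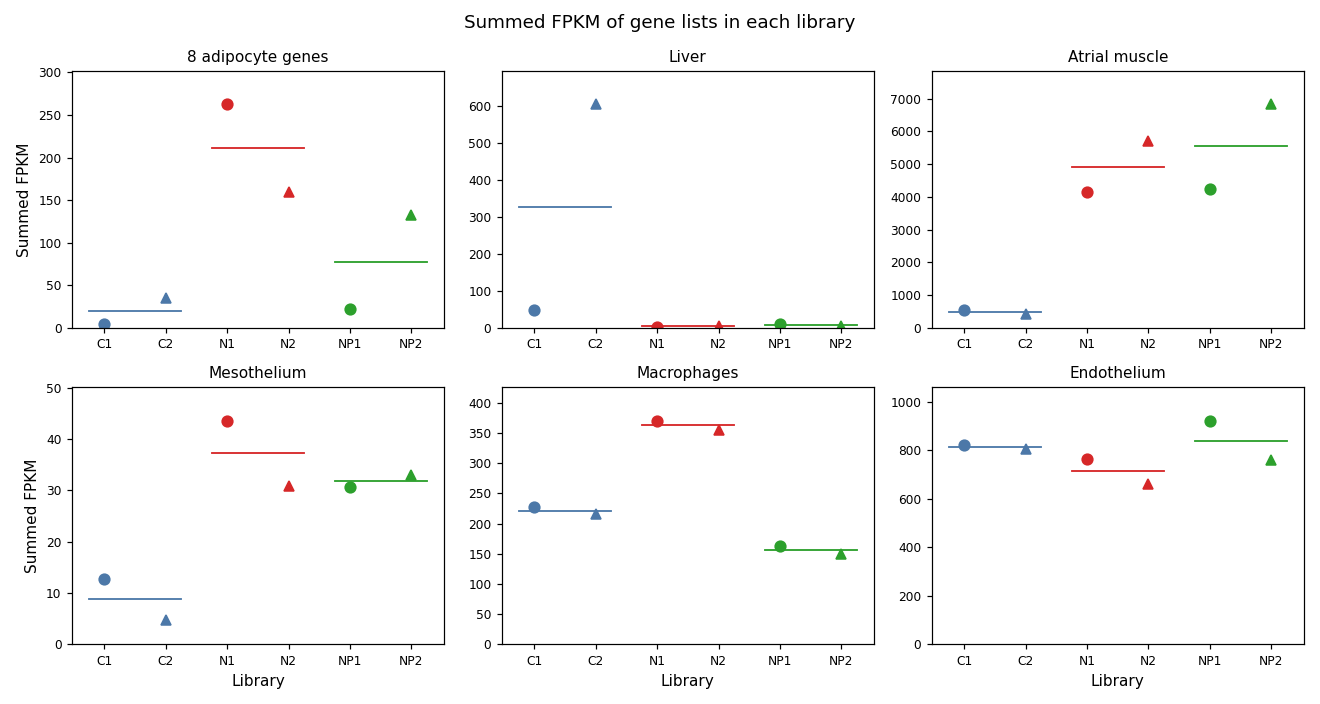
Summed FPKM (vertical axes, from 0) of 8 adipocyte genes and of 5 lists of marker genes in each library, with circles for replicate 1, triangles for replicate 2 and lines at the group means. The adipocyte genes were at 22.2 FPKM in NP1 and 132 in NP2, while the atrial and mesothelial lists were high in both and the macrophage list was low in both.

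The other genes of adipocyte biology were read from 6 lists with 144 genes beside the 10, of which 125 passed the filter. In limma's test with Benjamini-Hochberg adjustment, 1 of the 125 was higher and 0 lower in the N than in the C group, against 1.48% and 0.0696% of all genes. None was called between the NP and N groups, where 1.39% of all genes were lower, and none between the NP and C groups, where 0.0387% were higher. At an unadjusted p under 0.05 in limma's test, the numbers higher and lower were 17 and 8 for N against C (13.6% and 6.4%). They were 2 and 5 for NP against N (1.6% and 4%) and 13 and 9 for NP against C (10.4% and 7.2%). Over all genes, 8.24% were higher and 6.76% lower for N against C, 2.21% and 5.83% for NP against N, and 3.87% and 4.18% for NP against C. The shares of the 125 thus exceeded those of all genes for higher genes in N against C and in both directions in NP against C. The median log2 differences of the 125 genes were -0.05, 0.01 and -0.01, near those of all genes.

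The gene called was Scd2, a stearoyl-CoA desaturase that makes monounsaturated fatty acids. It stood at 4.08 FPKM in C1 and 4.28 in C2, 12.2 in N1 and 11.4 in N2, and 12.1 in NP1 and 15.2 in NP2. All libraries on the NASH diet were above the C libraries, and NP1 was not low. The log2 difference between the N and C groups was 1.31 with a standard error of 0.14 (limma, adjusted p = 0.0116). Scd2 was no longer called when any 1 of the C or N libraries was left out. Between the NP and C groups the difference was 1.49 (limma, adjusted p = 0.0578).

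Most abundant genes of these lists are used by heart muscle or vessels as well, and their values did not resemble those of Adipoq. Lpl, the lipase that frees fatty acids from circulating triglyceride, ranged from 1744 to 2273 FPKM. Cd36, a fatty acid transporter, ranged from 653 to 854 FPKM, and Pnpla2, the lipase that opens triglyceride breakdown, from 160 to 281 FPKM. The mitochondrial subunits Cox7a1 and Cox8b, used as brown fat markers in fat depots, stood at 2553 to 4944 and 2002 to 2608 FPKM, and the C libraries were the highest for Cox7a1. Among the droplet coats related to Plin1, Plin3 ranged from 71.3 to 141 FPKM and Plin5 from 56.7 to 122 FPKM, and both exceeded Plin1 in every library.

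Relatives of the 10 genes were listed too, and 17 of 20 passed the filter. Ucp2, the relative of Ucp1 found in many tissues and in immune cells, was the only one called, at 51.1 FPKM in C1 and 58.7 in C2, 124 in N1 and 113 in N2, and 98.1 in NP1 and 101 in NP2. Its N against C log2 difference was 1.10 with a standard error of 0.12 (limma, adjusted p = 0.0126), and its NP1 and NP2 values were alike. Fabp3, the heart form of the fatty acid carrier, ranged from 5957 to 10233 FPKM, far above Fabp4.

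A few low-level genes of the 6 lists, picked after their values were seen, were lowest in C1, C2 and NP1, at levels under 1 FPKM in every library. Adrb3, the adrenergic receptor through which noradrenaline starts fat breakdown, was at 0.0146 FPKM in C1 and 0.0355 in C2, 0.874 in N1 and 0.530 in N2, and 0.140 in NP1 and 0.362 in NP2. Lgals12, a galectin of adipocyte droplets, was listed at 0 in NP1 and stood at 0.230 in NP2, 0.888 in N1 and 0.494 in N2, and at most 0.0360 in the C libraries. Otop1, a proton channel known from brown fat, was listed at 0 in C1 and NP1 and stood at 0.307, 0.388 and 0.478 in N1, N2 and NP2. As for Ucp1, N1 was the lowest of these 3 libraries for Otop1, whereas it was the highest for Adrb3 and Lgals12. Reads were not estimated for these genes, and at such low levels the order of the 3 libraries may lie within counting error. Other low-level genes of the lists lacked this pattern. Serpina12 was at 0.0651 and 0.342 FPKM in C1 and C2 against 0 and 0.0328 in N1 and N2. Mogat2 was at 0.266 and 0.529 against 0.0724 and 0.292, and Aldh1a7 was highest in C2, at 1.07. Adrb3, Lgals12 and Otop1 therefore do not stand for all low-level genes of the lists.

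The genes whose pattern was most like that of the 10 were sought among 1248 others whose mean FPKM was 0.5 or more, with a range of at least 1 on the log2 scale, by Pearson's r over the 6 libraries with the mean log2(FPKM + 1) of the 10. Of these, 25 had an r of at least 0.9. The libraries fall into low and high ones, so that an r over 6 points that share depth and diet mainly describes that split. Those with the highest r included Npy (0.978), Prkar2b (0.974), Apol6, Nap1l5, Prr15, Scd1, 9430065F17Rik, Cd82, Cd24a, Vcam1, Gm16702, Camk1d, Fgl2 and Timp1 (0.928).

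Npy encodes neuropeptide Y, a transmitter of sympathetic nerves. It was listed at 0 in C1, was at 0.139 FPKM in C2, at 1.71 in N1 and 2.04 in N2 and at 0.364 in NP1 and 1.74 in NP2. Prkar2b encodes the regulatory subunit of protein kinase A that is abundant in fat and brain. Its level was 0.432 FPKM in C1 and 0.641 in C2, 3.26 in N1 and 4.50 in N2, and 0.575 in NP1 and 3.24 in NP2. Both thus had a low NP1 and a high NP2, as Adipoq did.

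Scd1, the desaturase abundant in fat and liver, was the only one of these 14 on the 6 adipocyte lists. It stood at 4.36 FPKM in C1 and 8.19 in C2, 135 in N1 and 38.4 in N2, and 10.4 in NP1 and 39.5 in NP2. Its excess of N1 over N2 recalled that of Cfd, and 2 further genes of fatty acid synthesis, named after their values were seen, were also highest in N1: Fasn at 22.6 FPKM against 7.56 in N2, and Acaca at 8.82 against 4.24. Vcam1, an adhesion molecule of activated endothelium, followed the order more shallowly, at 6.04 FPKM in C1 and 7.26 in C2, 12.8 in N1 and 15.1 in N2, and 7.23 in NP1 and 9.81 in NP2.

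**Figure D4:**
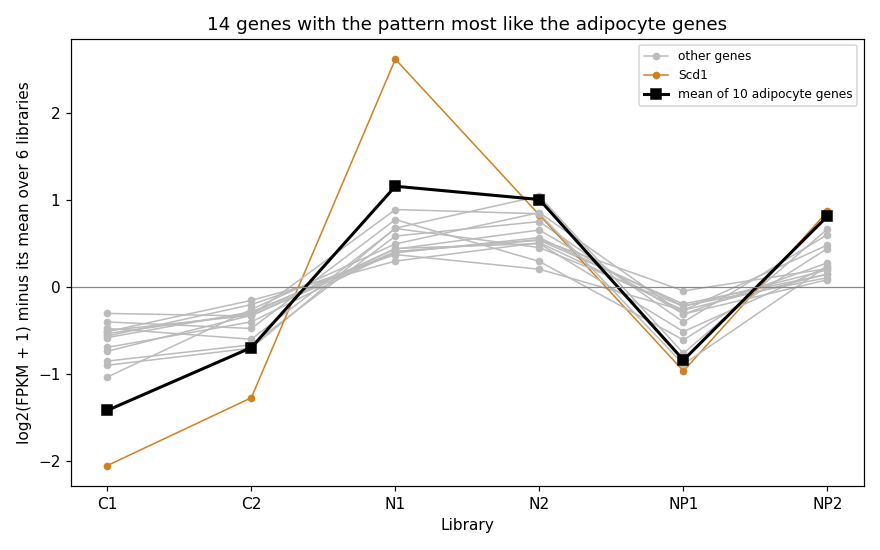
Log2(FPKM + 1) of each of 14 genes, less its mean over the 6 libraries (vertical axis), in each library (horizontal axis); the black line is the mean of the 10 adipocyte genes and the orange line is Scd1. Lines join the libraries only to guide the eye. The genes were low in C1, C2 and NP1 and high in N1, N2 and NP2, with r between 0.928 and 0.978.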

How the data were processed

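Heart RNA of the C, N and NP groups was analysed as 6 libraries, grouped by the diet and dose in the labels. The authors prepared stranded mRNA libraries, sequenced single-end reads and mapped them to mm10, and deposited FPKM per gene. The submitters' processing notes name TopHat2 2.0.13, Bowtie2 2.2.3, SAMtools 0.1.19 and Cufflinks 2.2.1. FPKM are not counts, and a value of 0 is given here as listed at 0. In each library, 73.9% to 80.0% of the values of up to 5 reads lay within 0.1 of a whole read of the estimated depth, which was read from 4107 genes with 1 annotated transcript. Besides counting error, estimated reads depend on the estimated depth, on the length of 1 transcript per gene and on an assumed fragment length of 200 bases.

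Differences were computed on log2(FPKM + 1) without further scaling. Genes whose mean FPKM was 0.5 or more were fitted with limma 3.58.1 in R 4.3.3, with 3 groups in one model (3 residual degrees of freedom), empirical Bayes moderation with a trend, and Benjamini-Hochberg adjustment over 12923 genes with a threshold of 0.05. The fit was tested on simulated data. With 2 libraries in each of 2 groups, an exact permutation test reaches p = 0.333 at best and was not used. Descriptions used Python 3.11.15.

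The 10 genes and all lists, written by hand, were chosen with earlier results of these data known. Named genes are the 10, the called and the 5 most abundant genes of the adipocyte, relative and PPARα lists, of which the text gives some, and the 15 most alike in pattern, 1 of which is not reported here. Others are said to be named after their values were seen. Of 308 list entries, 307 were found, 4 of them under an older symbol. Positions are those of RefSeq on GRCm38.p6. Alternatives changed the pseudocount, filter, scaling, groups in the fit, block and libraries.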

Additional observations from a re-analysis of the deposited data

How the results depend on the processing

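The medians of the 10 genes kept their direction under all 54 alternative values, and 3 of these moved by more than the spread between replicates. With a pseudocount of 0.1 the N against C median was 3.87 in place of 2.62. With 1 library left out in turn, the medians ranged from 2.10 to 3.10 for N against C, from -2.21 to -0.28 for NP against N and from 0.10 to 2.31 for NP against C. Leaving out Fabp4 and Cidea, or Car3, 2 alternatives added after seeing the data, moved no median beyond the spread between replicates.

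The counts of genes depended more on the processing. N against C gave 200 genes, 309 when FPKM were scaled to the same total and 49 to 183 with 1 library left out. Its 191 higher and 9 lower genes became 88 and 95 without C1, when C2 with its liver genes was the only C library. NP against N gave 179 genes, 78 with only the compared groups in the fit and 67 to 108 with 1 library left out. NP against C gave 5 genes, 12 with a pseudocount of 0.1, 10 at the same total, 0 without the filter (with the filter, limma gave 500 higher and 540 lower ones at p under 0.05 before adjustment) and 5 to 101 with 1 library left out (10 higher and 91 lower without C1). Of the 125 other adipocyte genes, N against C called 1, and 2 at the same total, while NP against C called 0, and 1 with a pseudocount of 0.1 or at the same total. With 1 library left out, 0 to 4 were called for N against C, 0 to 1 for NP against N and 0 to 4 for NP against C, and the 4 without C1 (Acaa1b, Elovl3, Orm1 and Rbp4, in both comparisons) were higher in C2 than in any other library. The lone library of a group is then assumed to vary like the others.

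Replicate 2 minus replicate 1 was compared between groups over all genes, whose values are not independent. Pearson's r was 0.458 between the N and NP groups, 0.124 between C and NP and 0.0471 between C and N. Spearman's values were 0.555, 0.263 and 0.230 in the same order. The N and NP groups thus shared part of their replicate difference, and NP1 against NP2 is also a contrast of the 2 name styles. These values do not establish a pairing of animals. With the replicate number as a replicate block, 328 genes were called for N against C, 200 for NP against N and 20 for NP against C, and of the other adipocyte genes 4, 0 and 2.

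With 2 libraries a group and NP libraries that differed severalfold, the NP mean of the adipocyte genes describes neither library. Levels under about 3 reads, as for Lep, cannot be ordered.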

Other observations

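The PPARα target list, read because pemafibrate acts on this receptor and adipocytes share several of these genes, had 18 of 20 genes past the filter. None was called in any of the 3 comparisons by limma at an adjusted p under 0.05. Without adjustment, 5, 1 and 11 genes were lower in N against C, NP against N and NP against C at p under 0.05, and 0 were higher. Over all genes, 6.76%, 5.83% and 4.18% were lower in these comparisons. The median log2 differences were -0.41 for N against C, -0.13 for NP against N and -0.54 for NP against C. Among them, named after their values were seen, Pdk4, the kinase that turns off glucose oxidation, stood at 1038 FPKM in C1 and 1108 in C2, 996 in N1 and 129 in N2, and 338 in NP1 and 89.5 in NP2. Angptl4, an inhibitor of lipoprotein lipase, stood at 35.5 FPKM in C1 and 32.8 in C2, 39.1 in N1 and 5.60 in N2, and 9.56 in NP1 and 3.32 in NP2. Both differed severalfold between the N libraries. Between the same libraries Adipoq was nearly equal, while the sum of 8 adipocyte genes was 263 FPKM in N1 and 160 in N2. That gap lay mostly in Cfd, at 142 and 53.5 FPKM.

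Transcripts of lymphocytes were scarce in all libraries. The 10 thymus genes summed to 0.577 to 3.20 FPKM, with 2 of them at 0 everywhere, and none passed the filter. The 8 B cell genes summed to 6.11 FPKM in N1 and 6.19 in N2 against 1.29 to 2.02 in the other 4, and NP2, high in the adipocyte genes, was not high in these.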
